A study of Mus musculus with 16 samples.

Results

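The collagen genes were analysed on 16 one-colour (Cy3) arrays of total RNA from mouse embryonic stem cells (mESCs), grown in medium with serum or in 2i. They were taken as every probe whose RefSeq identifier maps to a gene symbol of the form Col, a number, a and a number, which gave 64 probes of 44 genes among 55681 non-control probes and 21154 named genes. The 6 groups came from 3 lines, all derived from male J1 mESCs. J1-serum (wild type, 4 arrays) was grown on a layer of SNLP feeders whose division had been blocked with mitomycin C, and J1-2i had 3 arrays. TKO cells carry inactivated Dnmt1, Dnmt3a and Dnmt3b and so lack the DNA methyltransferases, with 2 arrays in serum and 3 in 2i. In 3B3l (3B3-3l in the labels) the genes Dnmt3a and Dnmt3b are knocked out and Dnmt3b and Dnmt3l are constitutively expressed from constructs, with 2 arrays in each medium. TKO and 3B3l were grown without feeders on gelatin. Serum medium held 15% FCS and 500 U/ml LIF. The 2i medium was serum-free and held 1000 U/ml LIF, 1 uM PD0325901 (a MEK inhibitor) and 3 uM CHIR99021 (a GSK3 inhibitor), and cells spent 2 weeks in it. Which cultures the replicates came from is not given in the sources used here, so p-values measure the spread between arrays, which may be technical.

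Collagens are triple-helical proteins built from 3 chains, and they make up most of the fibres and sheets of the extracellular matrix. Fibrillar chains form the fibres of connective tissue and are made in bulk by fibroblasts, whereas the type IV chains form the network of basement membranes, the first matrix that the early embryo lays down. In the blastocyst, primitive endoderm and its parietal derivative are the cells best known for making type IV collagen. Each chain is hydroxylated, glycosylated and folded in the endoplasmic reticulum before it is secreted, trimmed and cross-linked.

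The start regions of several chains on which the results turn are shown as background to the values, from RefSeq on build GRCm38.p6. Windows reaching from 250 bases before an annotated start were listed for 35 of the 44 genes. Col4a1 and Col4a2, which encode the 2 common type IV chains, lie head to head on chromosome 8. Their annotated starts span 22 bases, from 11312805 on the plus strand for Col4a2 to 11312826 on the minus strand for Col4a1. The 30 bases across both starts (chr8:11312801-11312830, plus strand) are printed with the stretch from one start to the other in capitals.
Col4a1 and Col4a2: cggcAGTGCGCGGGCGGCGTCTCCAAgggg
For Col1a2 and Col3a1, fibrillar chains of which the first was called lower in 2i in every line and the second in J1, and for Col18a1, which has 2 annotated starts and was called in every line, the 250 bases before the start follow. Capitals mark a match on either strand to the CCAAT box, the GC box (spelled GGGCGG) or the TATA box, spelled TATAAA. The AP-1 site was searched as TGANTCA and had no match in these windows.
Col1a2 (chr6:4505368-4505617, plus strand): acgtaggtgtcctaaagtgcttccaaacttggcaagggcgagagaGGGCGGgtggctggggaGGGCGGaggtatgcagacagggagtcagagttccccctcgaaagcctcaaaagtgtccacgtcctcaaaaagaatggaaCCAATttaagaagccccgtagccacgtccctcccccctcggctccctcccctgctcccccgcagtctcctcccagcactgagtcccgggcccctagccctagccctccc
Col3a1 (chr1:45311288-45311537, plus strand): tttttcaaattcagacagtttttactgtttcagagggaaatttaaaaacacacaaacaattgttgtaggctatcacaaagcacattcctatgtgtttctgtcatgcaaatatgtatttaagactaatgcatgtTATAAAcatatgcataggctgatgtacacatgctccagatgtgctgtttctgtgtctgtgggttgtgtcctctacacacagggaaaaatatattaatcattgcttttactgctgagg
Col18a1, upstream start (chr10:77166531-77166780, minus strand): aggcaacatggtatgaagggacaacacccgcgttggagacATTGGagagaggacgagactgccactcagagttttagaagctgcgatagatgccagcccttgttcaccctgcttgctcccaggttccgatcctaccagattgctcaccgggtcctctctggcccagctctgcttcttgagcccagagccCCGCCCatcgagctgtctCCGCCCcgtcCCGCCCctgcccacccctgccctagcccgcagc
Col18a1, internal start (chr10:77113706-77113955, minus strand): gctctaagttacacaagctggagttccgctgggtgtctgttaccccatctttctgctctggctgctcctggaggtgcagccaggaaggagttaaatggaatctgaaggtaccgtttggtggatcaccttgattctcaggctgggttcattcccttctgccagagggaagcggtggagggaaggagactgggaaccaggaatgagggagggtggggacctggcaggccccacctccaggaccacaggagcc
A GC box was found in 57.9% of the 38 collagen windows and in 32.7% of all 32851 windows, and a CCAAT box in 34.2% and 33.8%. A TATA box was found in 13.2% and 12.4% of them, and an AP-1 site in 2.63% and 6.75%. These matches are letters in a window and say nothing of a factor's binding.

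Each level is the log2 processed signal of a probe less that array's 75th percentile, so that a level of 0 marks the top 25% of spots. Levels of different probes are not comparable with each other. A gene was called between groups when its limma adjusted p did not exceed 0.05 and it changed by a factor of 2 or more. Where a group was nowhere well above background, the fold change is a bound ("at least"). It was taken on each array against the lowest signal measured above background or the probe's own value, whichever was higher. Where the probe's own value was higher on every array of that group, the bound is the fitted fold itself.

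Of the 44 collagen genes, 18 were not well above background on any of the 16 arrays (Col4a3, Col4a5, Col5a2, Col6a4, Col8a1, Col9a3, Col10a1, Col11a1, Col11a2, Col12a1, Col13a1, Col14a1, Col15a1, Col19a1, Col22a1, Col24a1, Col27a1 and Col28a1). A further 7 were above it on some arrays, but none of their probes was above it on a whole group. Taking any probe of the gene, these were Col4a4 (5 arrays), Col6a3 and Col8a2 (3 each), Col5a3, Col6a5 and Col6a6 (2 each), and Col6a2 (1). For Col8a2, 1 probe was above background on each of the 2 TKO-serum arrays, a different probe on each, so neither entered the test. The 3 arrays that measured Col6a3, a type VI chain, were all J1-serum arrays. The remaining 19 genes had a probe above background throughout 1 group or more and were tested. A gene that passed only through the group where it is high had to differ, so the counts that follow describe the tested genes and are no support for a direction. The short-chain collagens had no tested member, and 1 of 6 type VI genes was tested.

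The number of the 44 genes with a probe above background needs no such filter. It was 16 to 21 on the J1-serum arrays and 8 to 12 in J1-2i, 19 and 21 in TKO-serum and 12 to 13 in TKO-2i, and 15 on both 3B3l-serum arrays and 9 and 11 in 3B3l-2i. Within each line the serum and 2i arrays did not overlap. Over all named genes the share above background was 58.7% to 63.6% in J1-serum and 57.3% to 61.6% in J1-2i. It was 61.9% to 64.2% in TKO-serum and 58.5% to 60.6% in TKO-2i, and 57.5% to 58.4% in 3B3l-serum and 55.3% in 3B3l-2i.

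**Figure D1:**
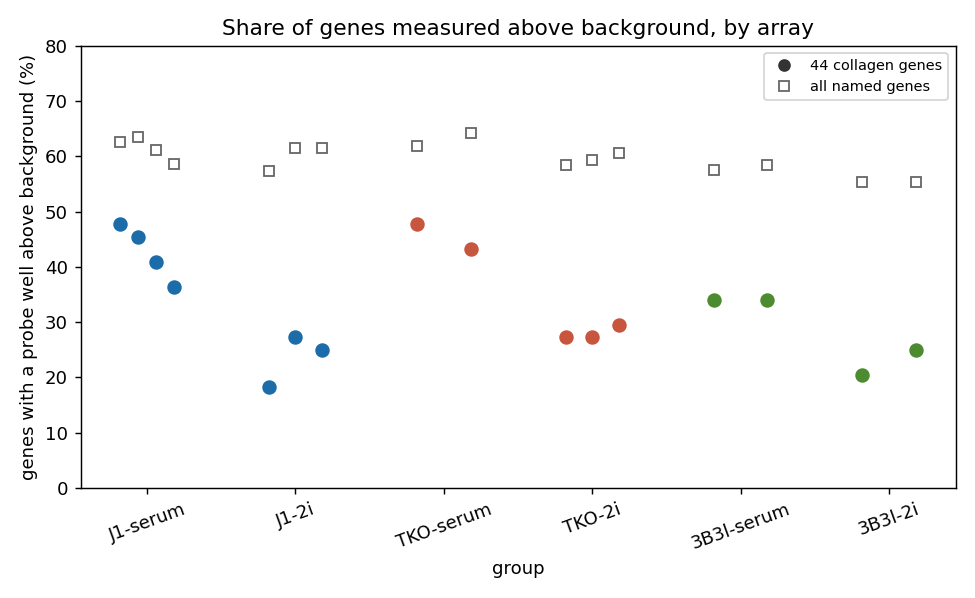
Share of genes with a probe well above background on each array (vertical axis, percent) by group (horizontal axis). Filled circles are the 44 collagen genes and open squares are all named genes. The collagen share fell from 36.4% to 47.7% on the J1-serum arrays to 18.2% to 27.3% in J1-2i, whereas the share of all genes lay between 55.3% and 64.2% on all 16 arrays.

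The first comparison asked how collagen transcripts responded to 2i in each line. In J1, 12 of 19 tested collagen genes were lower in 2i and 1 was higher (63.2% and 5.26%). Over all 13902 genes tested in that comparison, 12.6% were called lower and 10.1% higher, 22.6% in all. In TKO, 6 of 18 were lower and 0 higher, where 9.08% of all genes were lower and 6.72% higher (15.8% called). The same limma fit gave 0 collagen genes higher in TKO-2i at an unadjusted p under 0.05. In 3B3l, 8 of 19 were lower and 0 higher, where 7.95% of all genes were lower and 5.62% higher (13.6% called). Without the fold limit, 3 collagen genes passed as higher in 3B3l-2i, and 4 had an unadjusted p under 0.05. Median scaling raised the share of higher calls over all genes of J1 from 44.5% to 55.6%, and left the collagen counts of the 3 responses as they were. The median log2 difference of the tested collagen genes was -1.45 in J1, -0.38 in TKO and -0.42 in 3B3l, beside medians of 0.05, 0.07 and 0.00 over all genes tested.

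Col4a1, Col4a2, Col1a2, Col2a1 and Col18a1 were called lower in 2i in all 3 lines. These 5 genes are 5 of the 12 called lower in J1, 5 of 6 in TKO and 5 of 8 in 3B3l. Each of the other called genes of TKO and 3B3l was also called in J1. Among the 6 genes well above background on all 16 arrays (Col3a1, Col5a1, Col9a2, Col16a1, Col18a1 and Col20a1), 5 were called lower in J1-2i and 2 in each other line. The matching overlap and counts over all genes were not taken, so neither is shown to be particular to collagens.

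**Figure D2:**
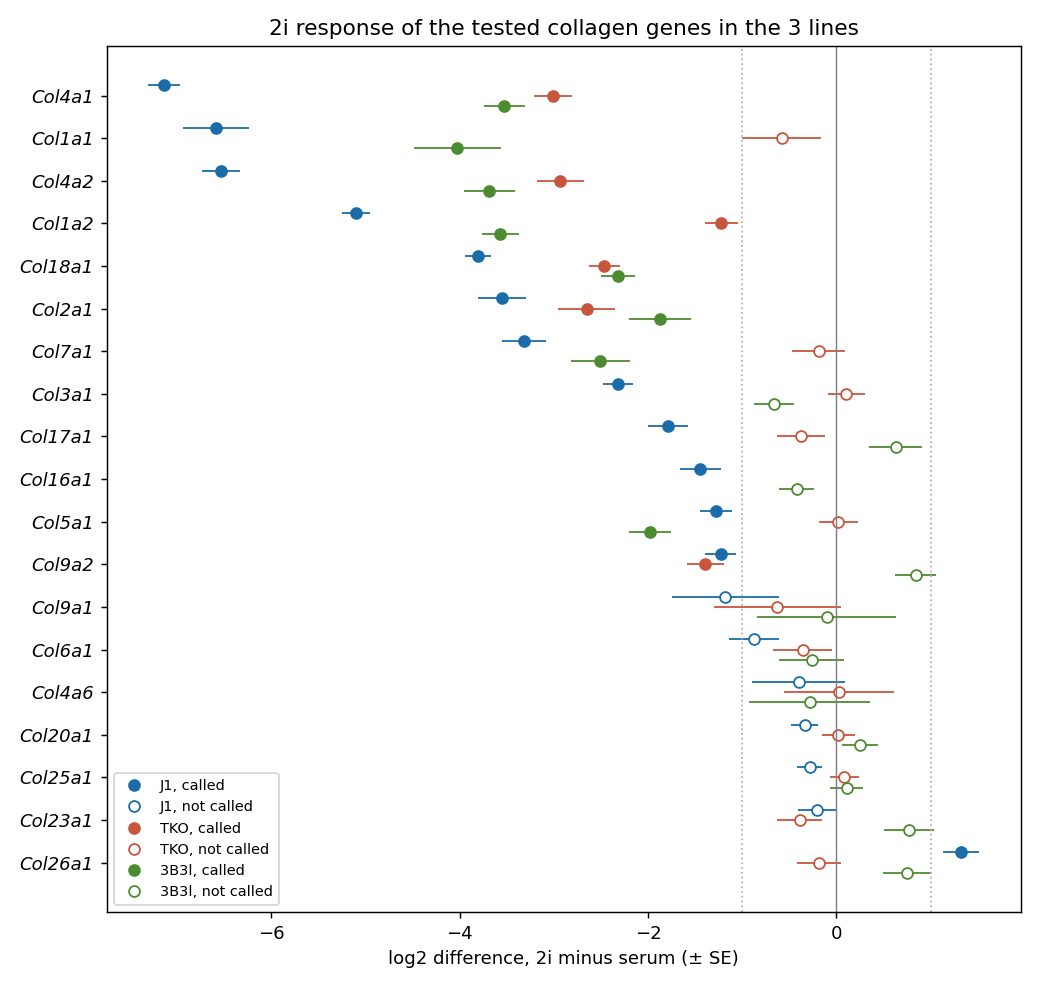
Log2 difference of 2i minus serum (horizontal axis, ± SE) for each of the 19 tested collagen genes (vertical axis) in J1 (blue), TKO (red) and 3B3l (green). Filled points were called, open points were not, and dotted lines mark a fold change of 2. The points of J1 reach -7.14 for Col4a1, whereas the lowest point of TKO is -3.01 and that of 3B3l is -4.03.

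The type IV chains Col4a1 and Col4a2 were lower in 2i in every line. Col4a1 was at 4.28, 3.83, 4.04 and 4.0 on the 4 J1-serum arrays and at -3.42, -2.89 and -2.98 on the 3 J1-2i arrays, none of which was above background. In TKO it was at 0.87 and 0.51 in serum and at -2.04, -2.27 and -2.63 in 2i. In 3B3l it was at 0.97 and 0.86 in serum and at -2.56 and -2.66 in 2i. All serum arrays stood above all 2i arrays in every line, and J1-serum stood above both other serum groups. The log2 difference was -7.14 ± 0.17 (SE, limma adjusted p = 1.5e-11) in J1, at least 135-fold. It was -3.01 ± 0.20 in TKO (adjusted p = 1.8e-07), where 1 of 3 TKO-2i arrays measured it above background, and -3.52 ± 0.22 in 3B3l (adjusted p = 1.4e-07), at least 9.41-fold. After normexp background correction, which adds a fixed offset to every signal, these differences were -6.14, -2.40 and -2.70, all still called, so the size of the bounds holds for the scanner's own correction.

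Col4a2, the partner chain, was likewise highest in J1-serum, and every serum array stood above every 2i array. On the J1 arrays it was at 2.79, 2.82, 2.99 and 2.88 in serum and at -4.00, -3.30 and -3.68 in 2i. TKO arrays had it at -0.68 and -1.13 in serum and at -3.51, -3.63 and -4.37 in 2i. It was at -0.58 and -0.50 in 3B3l-serum and at -4.24 and -4.22 in 3B3l-2i. No 2i array of any line was above background for this gene. The log2 differences were -6.53 ± 0.21 in J1 (adjusted p = 1.2e-10), -2.93 ± 0.25 in TKO (adjusted p = 1.3e-06) and -3.68 ± 0.27 in 3B3l (adjusted p = 5.6e-07), or at least 73.5-fold, 5.43-fold and 3.43-fold lower. After normexp correction they were -5.28, -1.78 and -2.43, all still called. Col4a6, a chain of some specialised basement membranes, showed no such pattern: its differences were -0.40 ± 0.49, 0.02 ± 0.59 and -0.28 ± 0.64. It was at -1.69, -1.24, -2.21 and -3.27 in J1-serum and at -3.08, -1.26 and -3.18 in J1-2i, and on the 9 arrays of TKO and 3B3l it lay between -1.43 and -0.64. The J1 arrays were thus the ones that varied most for this gene.

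Several markers moved with the type IV chains in J1-serum. Of 10 primitive endoderm markers, 8 to 10 were above background on the J1-serum arrays and 1 or 2 on each J1-2i array, 4 to 6 in TKO-serum and 4 in 3B3l-serum. Their summed linear level, in units of the array's 75th percentile, was 14.7 to 17.1 in J1-serum and at most 2.41 on any other array. Gata6, a transcription factor of primitive endoderm, was at least 49.4-fold lower in J1-2i (log2 difference -6.55 ± 0.47, adjusted p = 1.5e-07). Of 7 parietal endoderm markers, 6 or 7 were above background in J1-serum and 4 or 5 elsewhere, with a summed level of 85.3 to 114 against 40 to 68.7. Nid1 and Sparc stand both in this list and among the basement membrane partners below. In whole-culture RNA, fewer cells of a type and less RNA per cell cannot be told apart, and the part of such cells in the collagen levels was not tested.

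The fibrillar chains divided by line. All 5 tested fibrillar genes were lower in J1-2i, 4 in 3B3l-2i and 2 in TKO-2i, where 12.6%, 7.95% and 9.08% of all genes were lower. Col1a1, the major chain of type I collagen, was at 2.02, 2.39, 2.78 and 2.79 in J1-serum and at -4.07, -4.75 and -3.45 in J1-2i. In 3B3l it was at 1.39 and 2.35 in serum and at -2.45 and -1.86 in 2i. In TKO it was at -0.46 and -1.60 in serum and at -1.51, -1.65 and -1.69 in 2i, so the TKO groups overlapped. The log2 difference was -6.59 ± 0.35 in J1 (adjusted p = 1.0e-08), at least 60.2-fold, and -4.03 ± 0.46 in 3B3l (adjusted p = 3.0e-05), where 1 of 2 3B3l-2i arrays measured it above background. These were -5.10 and -3.38 after normexp correction and still called. The difference was -0.58 ± 0.42 in TKO (adjusted p = 0.33), which was not called.

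Col1a2, the second chain of type I collagen, was at 2.37, 2.86, 3.09 and 2.88 in J1-serum and at -2.18, -2.44 and -2.29 in J1-2i. It was at -0.69 and -0.60 in TKO-serum and at -1.83, -1.78 and -2.0 in TKO-2i. In 3B3l it was at 1.00 and 0.77 in serum and at -2.61 and -2.75 in 2i. The media did not overlap in any line. The differences were -5.10 ± 0.15 in J1 (adjusted p = 6.5e-11, 34.3-fold), -1.22 ± 0.18 in TKO (adjusted p = 1.5e-04, 2.34-fold) and -3.57 ± 0.19 in 3B3l (adjusted p = 3.9e-08, at least 9.24-fold). After normexp correction they were -4.49, -0.90 and -2.81, of which that in TKO was not called.

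Col3a1, the chain of type III collagen found with type I in pliable tissue, was called lower in J1 only. It was at 0.97, 0.57, 0.85 and 0.88 in J1-serum and at -1.82, -1.14 and -1.55 in J1-2i. In TKO it was at -1.41 and -1.51 in serum and at -1.36, -1.62 and -1.09 in 2i, and in 3B3l at -0.46 and -0.44 in serum and -1.05 and -1.17 in 2i. The J1-serum arrays were the only ones above 0. Its difference was -2.32 ± 0.16 in J1 (adjusted p = 1.2e-07, 4.99-fold), 0.10 ± 0.20 in TKO (adjusted p = 0.73) and -0.66 ± 0.21 in 3B3l (adjusted p = 0.040), the last below the fold limit. The response differed from that of J1 by 2.42 ± 0.25 in TKO (adjusted p = 2.2e-05) and by 1.66 ± 0.27 in 3B3l (adjusted p = 5.7e-04).

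Col2a1, the fibril chain of cartilage, fell in every line. It lay between -0.06 and 0.10 on the J1-serum arrays and at -4.10, -3.28 and -3.20 in J1-2i, with no 2i array of any line above background. TKO-serum arrays had it at -0.26 and -0.81 and 3B3l-serum arrays at -1.10 and -0.53. Its differences were -3.55 ± 0.25 in J1 (adjusted p = 1.3e-07, at least 9.65-fold), -2.65 ± 0.30 in TKO (adjusted p = 1.9e-05, at least 6.12-fold) and -1.88 ± 0.33 in 3B3l (adjusted p = 9.5e-04, at least 2.84-fold). After normexp correction they were -2.45, -1.84 and -1.28, all still called.

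Col5a1, a chain of type V collagen that regulates fibril width, was above background on every array. It was at 0.38, -0.09, -0.05 and -0.07 in J1-serum and at -1.27, -1.32 and -1.11 in J1-2i. The 3B3l arrays had it at 0.48 and 0.56 in serum and at -1.37 and -1.56 in 2i. In TKO it was at -0.82 and -1.47 in serum and at -0.92, -1.05 and -1.40 in 2i, with overlap. The differences were -1.28 ± 0.17 (adjusted p = 4.4e-05, 2.42-fold) in J1, 0.02 ± 0.21 (adjusted p = 0.95) in TKO and -1.98 ± 0.22 (adjusted p = 2.7e-05, 3.94-fold) in 3B3l. Its response in 3B3l was lower than that in TKO by 2.0 ± 0.30 on the log2 scale (limma adjusted p = 7.7e-04).

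**Figure D3:**
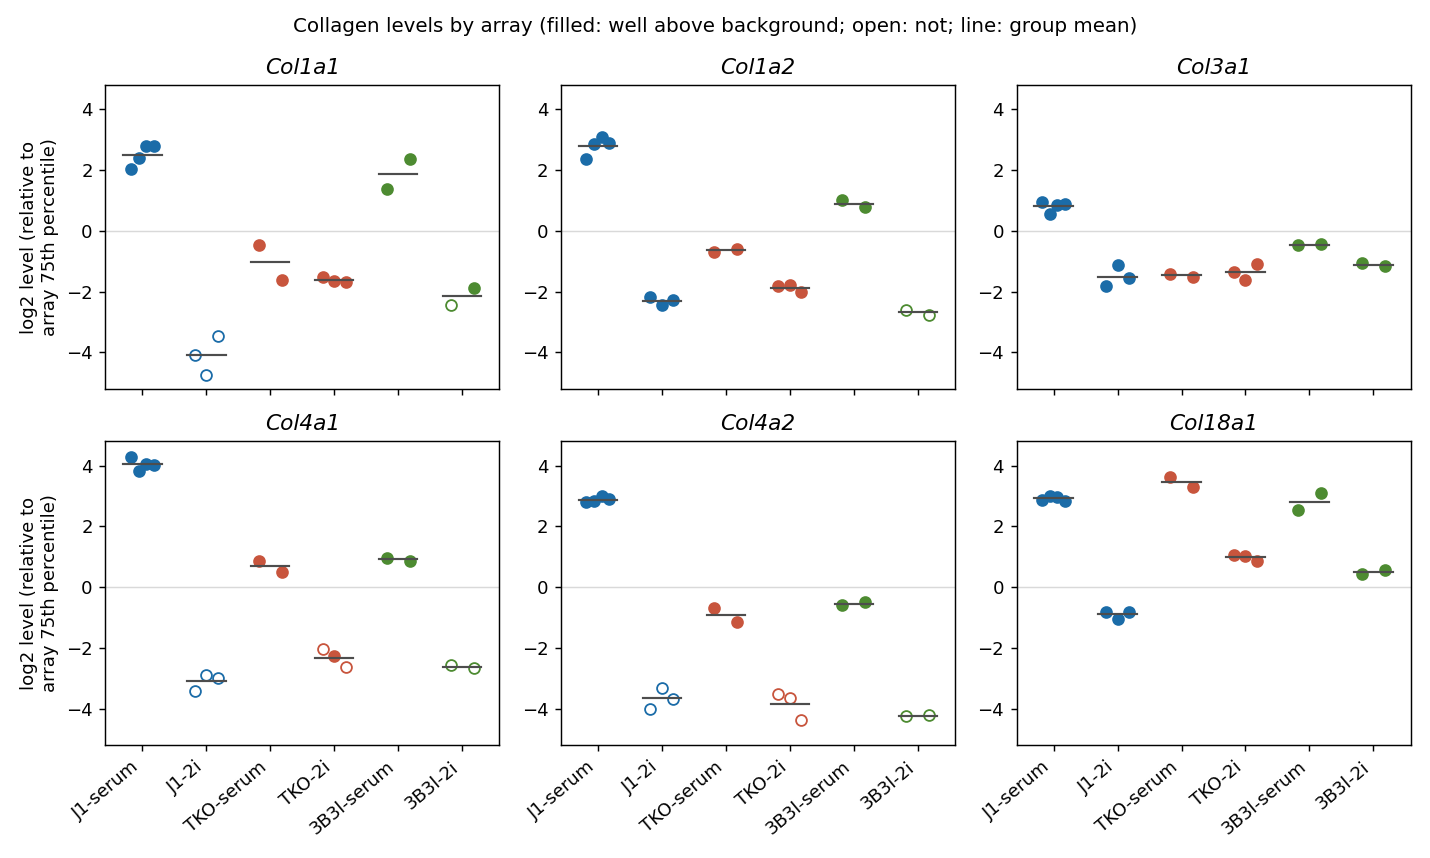
Log2 level of 6 collagen genes relative to the array's 75th percentile (vertical axis) on each array, by group (horizontal axis). Filled points were well above background, open points were not, and lines are group means. Col4a1 and Col4a2 are highest on the J1-serum arrays, Col1a1 separates serum from 2i in J1 and 3B3l but not in TKO, and Col18a1 in serum is highest in TKO and overlaps between J1 and 3B3l.

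Fibroblast markers were read beside the fibrillar chains because J1-serum was the one group grown on feeders, so feeders, line and medium cannot be told apart in that group. Of 20 markers, which include no collagen but share Dcn, Lum, Fbn1, Postn and Mmp2 with the lists of partners and breakdown genes below, 12 or 13 were above background in J1-serum, 9 or 10 in TKO-serum and 3B3l-serum and 6 to 9 on the 2i arrays. Their summed linear level was 79.4 to 92.2 in J1-serum and 19.9 to 21.5 in J1-2i. It was 83.8 to 85.1 in 3B3l-serum and 32.7 to 34.2 in 3B3l-2i, both without feeders, and 31 to 36.6 in TKO-serum and 36.4 to 37.7 in TKO-2i. That sum is weighted to the brightest probes. Of the 13 markers tested, 12 were called lower and 1 higher in J1-2i (median log2 difference -4.20). In TKO-2i 6 were lower and 1 higher (-0.73), and in 3B3l-2i 8 were lower and 2 higher (-1.25). Over all genes 12.6%, 9.08% and 7.95% were lower and 10.1%, 6.72% and 5.62% higher. The markers passed the same filter as the collagens, Dcn and Cav1 through J1-serum alone, so these counts are no support for a direction. Dcn (decorin), Cav1 and Pdgfrb were above background on all 4 J1-serum arrays and on no other serum array. In 2i, Pdgfrb was above it on 2 arrays of each line, Dcn on 1 array of J1 and Cav1 on none. Lum, Fap, Prrx1, Dpt and Meox1 were not above background on any array. The part of feeder RNA in the J1-serum levels was not tested. All 8 pluripotency markers were above background on all 16 arrays, beside 1 to 3 of 6 mesoderm and 3 or 4 of 4 neural markers.

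Col18a1, whose C-terminal fragment is endostatin and which belongs to the multiplexins of basement membranes, was high in serum in all 3 lines. It was at 2.86, 3.01, 2.96 and 2.84 in J1-serum and at -0.81, -1.03 and -0.83 in J1-2i. It was at 3.64 and 3.28 in TKO-serum and at 1.07, 1.04 and 0.87 in TKO-2i, and at 2.53 and 3.10 in 3B3l-serum and 0.43 and 0.55 in 3B3l-2i. The serum groups overlapped between J1 and 3B3l, and no 2i group overlapped a serum group or another 2i group. The differences were -3.81 ± 0.14 in J1 (adjusted p = 3.3e-10, 14-fold), -2.46 ± 0.16 in TKO (adjusted p = 1.6e-07, 5.52-fold) and -2.32 ± 0.18 in 3B3l (adjusted p = 8.8e-07, 5-fold). A second probe gave -3.60 ± 0.21, -2.40 ± 0.25 and -2.81 ± 0.27 and was called in each line too. The probes disagreed in other comparisons. Between TKO-serum and J1-serum the first gave 0.54 ± 0.15, below the fold limit, and the second 1.09 ± 0.24, which was called. Between 3B3l-2i and TKO-2i they gave -0.50 ± 0.16 and -1.23 ± 0.25, of which the second was called. The response of 3B3l exceeded that of J1 by 1.49 ± 0.22 on the first and by 0.79 ± 0.34 on the second (limma adjusted p = 0.12).

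Col7a1, the chain of the anchoring fibrils that join basement membrane to dermis, was at -1.14, -0.93, -1.35 and -1.08 in J1-serum and at -4.55, -4.73 and -4.04 in J1-2i. It was higher in 3B3l-serum, at 0.12 and 0.08, and at -2.28 and -2.53 in 3B3l-2i. In TKO the serum arrays (-2.64 and -2.51) lay within the range of the 2i arrays (-3.32 to -2.14). The differences were -3.32 ± 0.24 in J1 (adjusted p = 1.3e-07, at least 4.90-fold), -2.51 ± 0.31 in 3B3l (adjusted p = 5.4e-05, at least 5.29-fold) and -0.19 ± 0.28 in TKO (adjusted p = 0.66). After normexp correction the J1 difference was -1.94, still called.

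Among the FACIT collagens, which bind to the surface of fibrils, 2 of 4 were lower in J1-2i (12.6% of all genes), 1 of them Col16a1, whose call rests on a single J1-2i array. Col9a2, a type IX chain, was at 0.30, 0.09, -0.13 and -0.13 in J1-serum and at -1.26, -1.10 and -1.24 in J1-2i. It was at 0.94 and 0.79 in TKO-serum and at -0.35, -0.48 and -0.75 in TKO-2i. In 3B3l it was at -0.18 and -0.70 in serum and at 0.64 and 0.16 in 2i, the opposite order of media. The differences were -1.23 ± 0.16 in J1 (adjusted p = 4.2e-05, 2.35-fold) and -1.39 ± 0.20 in TKO (adjusted p = 1.3e-04, 2.62-fold), and 0.84 ± 0.22 in 3B3l (adjusted p = 0.012), below the fold limit. The response in 3B3l exceeded that in J1 by 2.07 ± 0.27 (adjusted p = 1.1e-04) and that in TKO by 2.23 ± 0.29 (limma adjusted p = 2.4e-04).

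Col16a1 was above background on all arrays, but its spot was marked as an outlier on J1-serum 1, J1-2i 1 and 2 and the 3 TKO-2i arrays. Its J1 difference of -1.45 ± 0.22 (adjusted p = 9.3e-04, 2.72-fold) therefore rests on 3 J1-serum arrays (-0.39, -0.52 and -0.66) and 1 J1-2i array (-1.97). That lone array adds no spread of its own and was assumed to vary like the other groups. Without Col16a1, 11 genes were lower in J1-2i, 4 of them among the genes above background on all 16 arrays. In 3B3l it was at -0.64 and -1.04 in serum and at -1.43 and -1.09 in 2i, a difference of -0.42 ± 0.19 (adjusted p = 0.16). The J1 call was lost with the replicate number as a block (adjusted p = 0.063).

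Col9a1, another type IX chain, passed the filter through TKO-serum, where it was at -2.16 and -1.85. In TKO-2i it was at -3.91, -1.98 and -2.01, with the first array below background and overlap between the media. No array of J1 or 3B3l measured it above background, and its 2i responses (-1.18 ± 0.56, -0.63 ± 0.67 and -0.10 ± 0.74) were not called. Col20a1, above background on all 16 arrays, stayed between -1.83 and -1.08 on all of them. Its differences were -0.34 ± 0.15, 0.02 ± 0.18 and 0.25 ± 0.19, and media overlapped in each line.

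Col17a1, a transmembrane collagen of hemidesmosomes, was above background on the J1-serum arrays and no others. It was at -1.20, -1.17, -1.30 and -0.97 there and at -3.0, -3.09 and -2.75 in J1-2i, a difference of -1.78 ± 0.21 (adjusted p = 1.5e-05, at least 3.44-fold). Col25a1, the precursor of a component of amyloid plaques, lay between -2.56 and -1.78 on all 16 arrays. It was above background on all arrays of J1-serum and TKO, on 2 of 3 of J1-2i and on none of 3B3l. On the 3B3l arrays the lowest level of any probe above background was -2.64 to -2.18. Its differences were -0.28 ± 0.13, 0.08 ± 0.16 and 0.11 ± 0.17. Col23a1 was above background on both TKO-serum arrays (-2.38 and -2.20) and on 2 others, and its differences of -0.20 ± 0.20, -0.39 ± 0.24 and 0.77 ± 0.26 were not called.

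Col26a1 was the one collagen gene called higher in a 2i response. It was at -1.89, -1.40, -1.64 and -1.73 in J1-serum and at -0.62, -0.26 and -0.16 in J1-2i, without overlap between the media. The difference was 1.32 ± 0.19 (adjusted p = 9.1e-05, 2.50-fold). TKO-serum arrays had -2.90 and -2.21 and TKO-2i arrays -2.56, -2.80 and -2.85, a difference of -0.19 ± 0.23 (adjusted p = 0.58). In 3B3l it was at -2.91 and -2.32 in serum and at -1.93 and -1.80 in 2i, a difference of 0.75 ± 0.25 (adjusted p = 0.048). The TKO response lay below that of J1 by 1.51 ± 0.30 on the log2 scale (limma adjusted p = 0.0026).

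**Figure D4:**
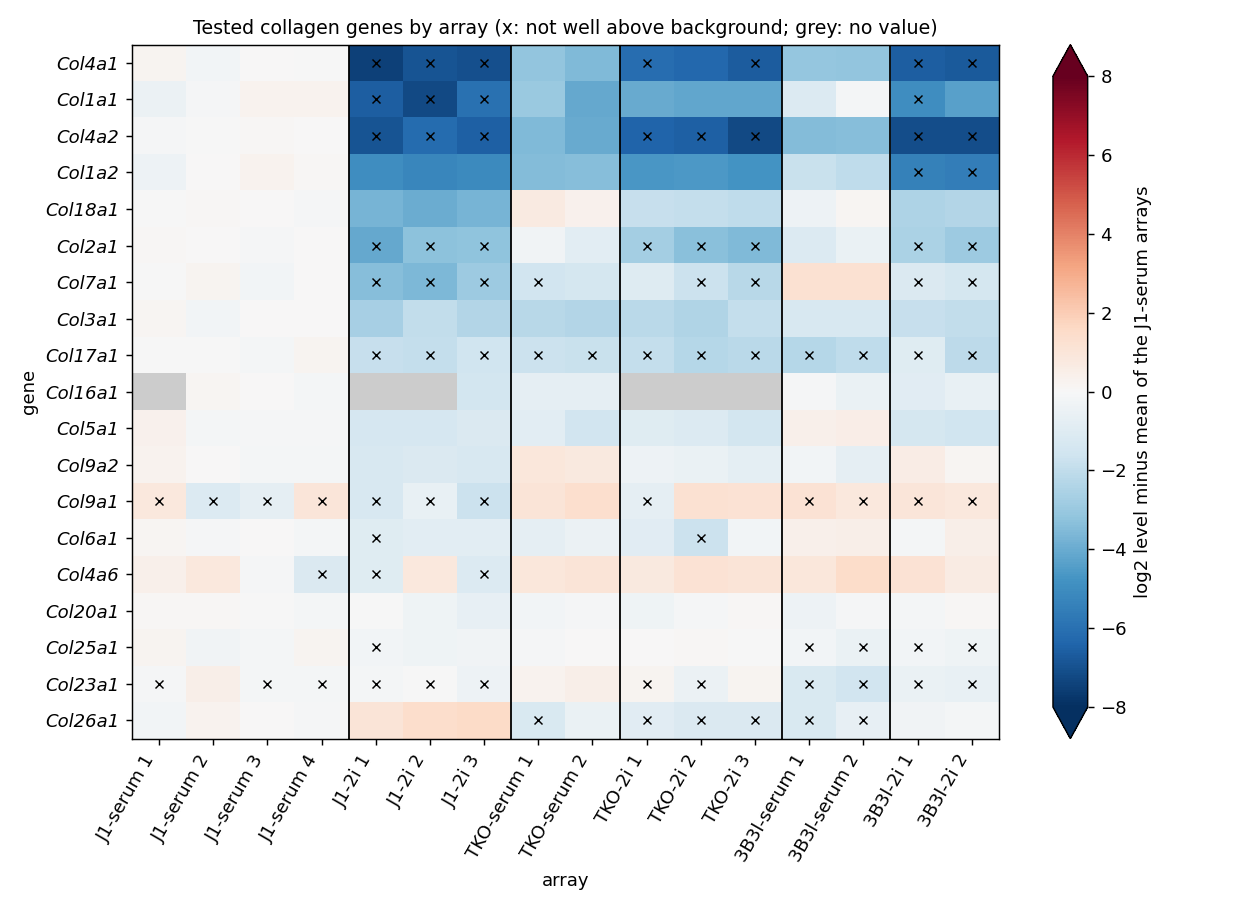
Log2 level of the 19 tested collagen genes (rows) on each of the 16 arrays (columns, by group and replicate), as the difference from the mean of the J1-serum arrays (colour, blue lower and red higher). A cross marks a value not well above background and grey a missing value. The rows Col4a1, Col1a1, Col4a2 and Col1a2 are the darkest in 2i, Col7a1 is higher in 3B3l-serum than in J1-serum, and Col26a1 is red in J1-2i.

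The next comparison set the lines against each other in serum. Of 19 tested genes, 8 were lower and 0 higher in TKO-serum than in J1-serum, where 8.74% of all genes were lower and 7.76% higher (16.5% called). At an unadjusted p under 0.05 the limma fit had 2 collagen genes higher in TKO-serum, and with the slide as a block 1 gene was called higher. In 3B3l-serum 6 were lower and 1 was higher than in J1-serum (9.43% and 9.86% of all genes, 19.3% called), or 5 lower without Col23a1, which was near or below background in both groups. Col3a1 was lower in both, 4.84-fold in TKO-serum and 2.40-fold in 3B3l-serum (-1.26 ± 0.19), the latter -0.99 and not called after normexp correction. Col17a1 was at least 3.36-fold and at least 2.38-fold lower, the latter a log2 difference of -2.14 ± 0.24, or -1.27 after normexp correction. Col5a1 (2.28-fold) and Col7a1 (2.73-fold) were lower in TKO-serum, but without TKO-serum replicate 2 the log2 difference of Col5a1 was -0.86 and not called. The 2 comparisons share the J1-serum arrays. Col4a2 was lower in TKO-serum by 3.78 ± 0.23 on the log2 scale (limma adjusted p = 1.1e-07, 13.7-fold). It was lower in 3B3l-serum by 3.42 ± 0.23 (adjusted p = 2.0e-07, 10.7-fold). Col4a1 was 10.2-fold lower in TKO-serum and 8.72-fold lower in 3B3l-serum (log2 differences -3.35 ± 0.19 and -3.12 ± 0.19).

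Type I chains differed between TKO-serum and 3B3l-serum. Col1a1 was lower in TKO-serum than in J1-serum (-3.53 ± 0.40, adjusted p = 1.7e-05), whereas its difference in 3B3l-serum was -0.63 ± 0.40 (adjusted p = 0.22). Set against each other, 3B3l-serum was 7.47-fold higher than TKO-serum (2.90 ± 0.46, adjusted p = 6.4e-04). Col1a2 was lower than in J1-serum in both (10.9-fold in TKO-serum and 3.76-fold in 3B3l-serum) and was 2.89-fold higher in 3B3l-serum than in TKO-serum. Col7a1 was 6.39-fold and Col5a1 3.17-fold higher in 3B3l-serum than in TKO-serum (adjusted p = 5.1e-05 and 1.9e-04). Col7a1 was above background on 1 of 2 TKO-serum arrays.

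In all, 6 collagen genes were higher and 2 lower in 3B3l-serum than in TKO-serum, where 5.2% of all genes were higher and 5.49% lower (10.7% called). Col3a1 (1.01 ± 0.21) and Col6a1 (1.02 ± 0.35), which lay close to the fold limit, lost the call under quantile or median scaling, with the slide as a block (0.78 and 0.77) and in the table the authors normalized. Col3a1 was also not called without TKO-serum replicate 2 (0.96). Col6a1 was not called after normexp correction (0.60), with the replicate number as a block, or without any 1 of the 4 arrays compared (0.90 to 1.14). The 2 genes lower in 3B3l-serum were Col9a2 (-1.31 ± 0.22, 2.47-fold) and Col23a1 (-1.72 ± 0.26, at least 1.09-fold). Col23a1 was at -2.38 and -2.20 in TKO-serum and at -3.85 and -4.16 in 3B3l-serum, where it was not above background. After normexp correction the difference was -0.70 and not called. Against J1-serum the fit gave -1.35 ± 0.23 (-0.30 and not called after normexp correction), but 1 of 4 J1-serum arrays and no 3B3l-serum array was above background, so this call shows no measured fall. Col7a1 was the gene called higher in 3B3l-serum than in J1-serum (1.23 ± 0.27, adjusted p = 0.0023, 2.34-fold).

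The lines were then compared in 2i. Of 18 tested genes, 3 were higher and 1 lower in TKO-2i than in J1-2i (3.8% and 3.55% of all genes, 7.35% called). Of 19, 6 were higher and 1 lower in 3B3l-2i than in J1-2i (7.82% and 6.56% of all genes, 14.4% called), and 1 of 18 was higher in 3B3l-2i than in TKO-2i (4.67% of all genes higher and 5.35% lower, 10% called). Col18a1 was 3.69-fold higher in TKO-2i (1.89 ± 0.15, adjusted p = 2.0e-06) and 2.61-fold higher in 3B3l-2i (1.38 ± 0.16, adjusted p = 3.9e-05) than in J1-2i. Col1a1 was at least 3.49-fold (2.48 ± 0.38) and at least 2.39-fold (1.93 ± 0.42) higher in them. After normexp correction these differences were 1.35 and 0.96, the second not called. Col7a1 was at least 1.57-fold higher in TKO-2i (1.68 ± 0.25), a difference of 0.75 and not called after normexp correction. The 3B3l-2i arrays also exceeded those of J1-2i for Col9a2, 3.03-fold (1.60 ± 0.20). Col26a1 was lower in TKO-2i (at least 5.25-fold) and in 3B3l-2i (2.87-fold, -1.52 ± 0.23), the latter -0.71 and not called after normexp correction. Col4a1 and Col4a2 were far apart in serum between J1 and each other line. Among the 2i groups their differences lay between -0.57 and 0.79 and were not called. Of the 8 2i arrays, 1 was above background for Col4a1 and 0 for Col4a2.

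Col6a1, a chain of the beaded filaments of type VI collagen, was called higher in 3B3l-2i than in both other lines. Its serum arrays were at -1.04, -1.29, -1.19 and -1.35 in J1, -1.93 and -1.70 in TKO and -0.83 and -0.76 in 3B3l. It was at -1.37 and -0.75 in 3B3l-2i, at -2.18, -2.04 and -2.05 in J1-2i and at -2.12, -2.94 and -1.46 in TKO-2i. The difference from TKO-2i was 1.11 ± 0.32 (adjusted p = 0.019). It was not called after normexp correction (0.70), with the slide as a block (0.88, adjusted p = 0.35), without TKO-2i replicate 2 (0.73) or without 3B3l-2i replicate 2 (0.81). The difference from J1-2i (1.03 ± 0.32) was not called with the slide as a block either (0.80, adjusted p = 0.33). Nor was it called after normexp correction (0.70), under quantile scaling or in the authors' table (0.98 in both), without J1-2i replicate 1 (0.98) or without 3B3l-2i replicate 2 (0.72). All 4 arrays of 3B3l were on a slide that held 1 array of another line (J1-serum 1), so the slide and the line can be separated only through that array. Col9a1 and Col7a1, the other genes called there, were not above background on any array of either J1-2i or 3B3l-2i, so no fold is given for them and 4 of the 6 higher genes had an array above background.

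The 2i responses themselves were then compared between lines. The response of TKO was less negative than that of J1 in 9 of 18 tested collagen genes and more negative in 1 (7.76% and 7.51% of all genes, 15.3% called). That of 3B3l was less negative or more positive than that of J1 in 10 of 19 and more negative in 0 (8.63% and 8.59% of all genes, 17.2% called). The 10 include Col16a1, which rests on 1 J1-2i array and lost its call in 11 of 21 alternatives (0.72 to 1.42), and Col17a1, which was not above background in either medium of 3B3l. In the same limma fit 1 gene was more negative in 3B3l at an unadjusted p under 0.05. Both differences share the J1 arrays. For Col1a1 the response of TKO lay 6.0 ± 0.55 above that of J1 (adjusted p = 7.0e-06) and that of 3B3l 2.56 ± 0.58 above it (adjusted p = 0.0057), or 4.6 and 1.72 after normexp correction. For Col7a1 the response of TKO exceeded that of J1 by 3.13 ± 0.37, or by 1.86 after normexp correction. For Col5a1 it did so by 1.30 ± 0.27, a call lost without TKO-serum replicate 2 (0.97) and within the slide shared by J1 and TKO (1.05, adjusted p = 0.065). For Col4a1 the differences were 4.13 ± 0.26 (adjusted p = 4.1e-07) and 3.61 ± 0.28 (adjusted p = 1.4e-06). No J1-2i array was above background for Col1a1, Col4a1 or Col7a1. Col4a1 was above it on 1 TKO-2i array and no 3B3l-2i array. Their falls in J1 thus end at background, and these differences from J1 are not measured sizes. Between 3B3l and TKO, 2 responses were higher and 4 lower in 3B3l (4.68% and 4.79% of all genes, 9.47% called). The 2 higher were Col9a2 and Col23a1, the latter lost in 10 of 19 alternatives (0.61 to 1.33). The 4 lower were Col1a1, Col1a2, Col5a1 and Col7a1. Median scaling moved the share of higher calls over all genes from 50.8% to 39.5% for TKO minus J1, where the collagen counts stayed at 9 and 1.

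With the slide as a block, 13, 6 and 8 collagen genes were called in the 2i responses of J1, TKO and 3B3l, the same counts as without it. Within the slide that held all 4 groups of J1 and TKO, 14 and 6 were called, and Col4a1 fell by 7.23 in J1 and by 3.14 in TKO on the log2 scale. Within that slide Col1a1 fell by 6.55 in J1. All arrays of 3B3l were on 1 slide, within which 9 were called in the 2i response.

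Genes that act on collagen were described from lists of fixed members. Of 17 tested genes for chain modification and folding, 7 were lower in J1-2i, 5 in TKO-2i and 4 in 3B3l-2i, and 0 higher in any. Median scaling gave 1 higher in J1-2i and in 3B3l-2i, and quantile scaling 1 in 3B3l-2i. The background shares are those given above for each response, and the median log2 difference of the list was -0.49, -0.22 and -0.05. Fkbp10, a chaperone of type I procollagen, fell in every line (-3.73 ± 0.08, -2.57 ± 0.10 and -3.02 ± 0.11, adjusted p = 9.4e-12, 1.6e-09 and 2.3e-09). P3h4, which works with prolyl 3-hydroxylase, and Creb3l1, a transcription factor of secretory cells, also fell in all 3. Serpinh1, the collagen chaperone Hsp47, fell in J1 (-2.17 ± 0.13) and 3B3l (-1.64 ± 0.17). P4ha1 and P4ha2, prolyl 4-hydroxylase subunits, were lower in TKO-serum (-3.68 ± 0.25 and -2.77 ± 0.13) and 3B3l-serum (-4.48 ± 0.25 and -3.06 ± 0.13) than in J1-serum.

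Of 7 tested processing and cross-linking genes, 2 were lower and 1 higher in J1-2i, 2 and 1 in TKO-2i, and 1 lower and 0 higher in 3B3l-2i. Adamts14, a procollagen N-proteinase, was lower in each (-1.19 ± 0.16, -1.58 ± 0.20 and -2.31 ± 0.22). Loxl1, a lysyl oxidase, was lower in J1 (-2.38 ± 0.21) and TKO (-2.54 ± 0.26). Pcolce2, an enhancer of C-propeptide cleavage, was higher in J1-2i (1.70 ± 0.13), and Pcolce was higher in TKO-2i (1.04 ± 0.11), a call lost under quantile scaling.

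Among 5 tested collagen receptors, Ddr1, a receptor tyrosine kinase for collagen, was lower in 2i in every line (-1.87 ± 0.13, -1.93 ± 0.15 and -2.42 ± 0.16). Itgb1, the beta chain of the collagen-binding integrins, was called lower in 3B3l-2i (-1.18 ± 0.11). Ddr2 was higher in J1-2i (at least 1.71-fold) and was called higher in 3B3l-2i (1.59 ± 0.19), where no array of either medium was above background. Of 6 tested genes of collagen breakdown, 4 were lower in each response, or 3 in 3B3l under median scaling. They included Mmp2, a gelatinase (at least 42.6-fold lower in J1-2i, 11.3-fold in TKO-2i and 5.63-fold in 3B3l-2i), Mmp14, which activates it, and Timp2 and Timp3, inhibitors of metalloproteinases. Timp1 was higher in TKO-2i (1.19 ± 0.11).

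Of 7 tested basement membrane partners, 2 were higher and 2 lower in J1-2i, and 1 higher and 2 lower in each other line. Nid1 (nidogen), which links laminin to type IV collagen, was higher in 2i in all 3 lines (1.25 ± 0.09, 1.82 ± 0.11 and 1.06 ± 0.12), the opposite direction to Col4a1 and Col4a2. Pxdn, the peroxidase that cross-links type IV collagen, was lower in all 3 (-4.19 ± 0.23, -4.10 ± 0.27 and -3.29 ± 0.30), as was Hspg2 (perlecan, -1.05 ± 0.31, -1.10 ± 0.37 and -1.52 ± 0.40). Median scaling left 1 lower in J1-2i and in TKO-2i, and quantile scaling 0 higher in 3B3l-2i. Of 3 tested fibril partners, 2 were lower in J1-2i, 1 in TKO-2i (Dcn, below background in both media) and 0 in 3B3l-2i, with 0 higher in any, or 1 higher in TKO-2i under median scaling and 1 lower in 3B3l-2i under quantile scaling. Dcn and Bgn, small proteoglycans of fibrils, were the ones lower in J1-2i (-4.29 ± 0.33 and -2.47 ± 0.41). Both were also lower in TKO-serum and 3B3l-serum than in J1-serum, for Dcn at least 18.8-fold and 14.3-fold.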

How the data were processed

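Total RNA was labelled with Cy3 and hybridised to one array per sample. The deposited scanner files hold processed signal intensity per spot, which the authors' software, Agilent Feature Extraction 11.5.1.1 per the submitters' processing notes, had corrected for background and spatial trend and had not normalized between arrays. Raw median intensity of spot and local background is deposited as well. The authors also deposited log2 values of 30170 probes, normalized between arrays by a method not given in the sources used here. In 13 of its 16 columns the best match among the arrays was another replicate of the same group, so it served as an alternative only.

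Here log2 of the processed intensity minus the 75th percentile over the non-control spots of the array was used. Spots marked as non-uniform or population outliers were left out, spots of a probe were averaged, and a probe was well above background when the software's flag said so for 50% or more of its spots. Probes above background throughout 1 group or more were tested (27126 probes, 13917 named genes, of which 19 collagen genes by 20 probes). All 16 arrays were fitted as 6 group means with limma 3.58.1 in R 4.3.3, moderated by eBayes and adjusted by Benjamini-Hochberg over all tested probes, two-sided. A gene was taken by its tested probe with the highest mean. Of the tested collagen genes, 7 had 11 further probes, of which 1 (Col18a1) was tested and 9 were above background nowhere. Comparisons that need Col16a1 in TKO-2i had no value. The script was tested on simulated data. Symbols came from RefSeq accessions matched to GRCm38.p6, and no probe coordinates are given because the array grid is on mm9.

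Depth of an array is its signal over background: 39.7% to 49% of spots were well above it, the 75th percentile was 1019 to 1797 intensity units, and correlations within groups were 0.968 to 0.992. The number of arrays limits the precision. Slides and scans were those of the file headers (3 slides). The 3B3l arrays and J1-serum 1 shared a slide and a scan date, apart from all other arrays. The lowest level measured above background was -2.64 to -2.18 on the 3B3l arrays and -3.76 to -2.53 on the arrays of the other scan date. It was -4.70 on J1-serum 1. In counts above background, 3B3l and its scan can be separated only through that array.

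Collagen genes, lists and tests were chosen with earlier results of these data known. Any collagen gene with a probe could be named, with full statistics for those called in a 2i response and values of single arrays for the largest changes, and of each list up to 4 called genes per comparison were named. Alternatives were normexp correction (offset 50), quantile and median scaling, other filters, the authors' table, the slide or the replicate number as a block, no fold limit, any probe of a gene, 1 slide alone and leaving out each array. Keeping the outlier-marked spots, and the slide of 3B3l alone, were added after seeing the data.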

Additional observations from a re-analysis of the deposited data

Results flagged for a closer look

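Among the 4 J1-serum arrays, Col5a1 was at 0.38 on replicate 1 and Col23a1 at -2.20 on replicate 2, each far from the other 3 by Dixon's test at the 95% level, which marks about 1 in 20 groups by chance. For Col23a1 the other 3 arrays were not above background. J1-serum 1 was also the J1 array that shared its slide with 3B3l.

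The 2i responses differed between lines in these genes by the test of the difference in limma (log2). TKO minus J1 was 6.0 for Col1a1, 4.13 for Col4a1, 3.88 for Col1a2, 3.60 for Col4a2, 3.13 for Col7a1, 2.42 for Col3a1, 1.41 for Col17a1, 1.34 for Col18a1, 1.30 for Col5a1 and -1.51 for Col26a1. 3B3l minus J1 was 3.61 for Col4a1, 2.85 for Col4a2, 2.56 for Col1a1, 2.41 for Col17a1, 2.07 for Col9a2, 1.68 for Col2a1, 1.66 for Col3a1, 1.53 for Col1a2, 1.49 for Col18a1 and 1.02 for Col16a1. 3B3l minus TKO was -3.44 for Col1a1, -2.34 for Col1a2, -2.32 for Col7a1, -2.0 for Col5a1, 1.16 for Col23a1 and 2.23 for Col9a2. The call for Col16a1, which rests on 1 J1-2i array, was lost in 11 of 21 alternatives, and that for Col23a1 in 10 of 19. Neither 3B3l group was above background for Col23a1. Col17a1 was above background in J1-serum alone, so its responses in TKO and 3B3l are differences between values below background, and 1.41 and 2.41 are not measured sizes. No J1-2i array was above background for Col1a1, Col2a1, Col4a1, Col4a2 or Col7a1. Their differences from J1 are therefore not measured sizes either. Col2a1 and Col4a2 were above it on no 2i array of any line, Col4a1 on 1 TKO-2i array, and Col1a2 and Col7a1 on no 3B3l-2i array. J1-serum, which enters the first 2 sets, was the only group on feeders.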

How the results depend on the processing

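Of 88 called differences of single collagen genes, 70 kept their call under every alternative that gave them a value and none changed sign in 1583 recomputed values, of which 64 fell below a limit. Those lost most often included Col6a1 in comparisons of 3B3l with TKO or J1, Col9a1 in 3B3l-2i against J1-2i and Col3a1 in 3B3l-serum against TKO-serum. The differences of response of Col16a1 (3B3l minus J1) and Col23a1 (3B3l minus TKO) were also among them.

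Restricting the test to probes well above background on all 16 arrays left 6 collagen genes, with 5, 2 and 2 called in the 2i responses of J1, TKO and 3B3l. It left 2 called for TKO-serum and 1 for 3B3l-serum against J1-serum, 3 for 3B3l-serum against TKO-serum, 1 for TKO-2i and 2 for 3B3l-2i against J1-2i, and 0 for 3B3l-2i against TKO-2i. For the differences of response it left 3 (TKO minus J1), 4 (3B3l minus J1) and 2 (3B3l minus TKO). With no filter 11 rather than 7 were called for 3B3l-serum against J1-serum, and after normexp correction 4 rather than 7 for 3B3l-2i against J1-2i. For 3B3l-2i against TKO-2i the count of 1 was 0 with the slide as a block, 2 with any probe, 5 with no fold limit and 0 to 2 without single arrays. The 0 came without TKO-2i replicate 2 or without 3B3l-2i replicate 2, both of which end the call of Col6a1. Other counts were within 1.5 times of the main ones.

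Replicate numbers did not pair the samples: deviations of same-numbered arrays correlated at -0.12 to 0.29 over 7 pairs, and 6 of 14 arrays deviated most like the array of their own number. With the number as a block 12, 6 and 8 collagen genes were called in the 2i responses, 8, 7 and 7 in serum, 5, 6 and 1 in 2i and 10, 9 and 5 in the differences of response.

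Leaving out single arrays gave 12 to 14, 6 to 8 and 8 to 10 calls in the 2i responses of J1, TKO and 3B3l. Without 1 array a group of 2 holds a lone array that is assumed to vary like the others. Median scaling moved the median of all probes by 0.16 in the J1 response and 0.13 in that of 3B3l, and quantile scaling by -0.11 in 3B3l-serum against each other serum group. The cause of these changes was not tested. Levels below background bound the differences of the dim 2i arrays.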
